A study of Mus musculus with 4 samples.

Results

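The DNA replication and G1/S module comprised 45 genes chosen by name, all of which were found by symbol among the 31053 genes of the feature table. They were followed in single B cells from mouse spleen, in 4 droplet libraries that the cell barcodes number 5 to 8. The study compared 2 cultures of purified splenic B cells from WT mice, of strain C57BL/6 in the study's description of these cultures, with 2 replicates each. Both cultures were kept for 3 days with CpG B ODN 1668, a DNA agonist of TLR9. Bregs-CpG received nothing further, whereas Bregs-TLR were also given LPS, PMA, and ionomycin for the last 5 hours. LPS stimulates TLR4, PMA activates protein kinase C, and ionomycin lets calcium into the cell. The control culture was therefore itself made of TLR9-activated cells, and no sample of unstimulated B cells was analysed here. No label ties a library number to a culture, so no library was assigned to Bregs-CpG or Bregs-TLR, and all cells counted as 1 pooled sample. The values below are descriptions of 4 libraries with no test. Their 95% intervals cover counting error only, not the variation between mice or cultures.

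A cell copies its genome in S phase, and the preparation starts in G1. The origin recognition complex, CDC6, and CDT1 load the MCM2 to MCM7 helicase onto origins, CDC45 and the GINS complex then switch the helicase on, and polymerases, the PCNA clamp, and nucleotide-making enzymes carry out the synthesis. Many of these genes are switched on at the G1/S border by E2F transcription factors, and resting splenic B cells pass this border when they are stimulated through TLR9. Mki67 encodes the proliferation antigen Ki-67, whose mRNA is most abundant in G2 and mitosis, so a cell can carry replication transcripts with little or no Mki67.

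Only cells in which 1000 or more genes were seen and less than 10% of UMIs were mitochondrial entered the values, a UMI being 1 captured mRNA molecule. Libraries 5, 6, 7, and 8 held 4196, 4714, 5621, and 4003 such cells, with 44842982, 51636750, 63638158, and 45672518 UMIs. The median depth was 8752 to 8785 UMIs per cell in libraries 5 and 6 and 10077 to 10355 in libraries 7 and 8, and the median mitochondrial share was 7.18% to 7.22% and 4.61% to 4.65%. Of 19891 distinct barcode sequences, 29 occurred in more than 1 library. Libraries 5 and 6 stood apart from 7 and 8 in more than the module. Levels below are CPM, the UMIs of a gene per 1000000 UMIs of the library. Il10, which encodes the regulatory cytokine interleukin 10, was at 13.7 and 11.1 CPM in libraries 5 and 6 and at 255 and 253 CPM in 7 and 8. The 5 B cell markers summed to 7056 and 7314 CPM in libraries 5 and 6 and to 1474 and 1468 CPM in 7 and 8, all 5 of them lower there, with Cd79a still found in 92.6% and 91.9% of cells. Of the 7 plasma cell markers, which summed to 1614 and 1779 against 390 and 339 CPM, Mzb1 took the greatest part and was at 1441 and 1548 against 154 and 157 CPM. Sdc1, at 0.201 and 0.213 against 7.45 and 6.15 CPM, and Xbp1, at 84.7 and 91.7 against 112 and 107 CPM, went the other way. Marker sums of T cells stayed at 0.424 to 0.788 CPM and those of myeloid cells at 3.11 to 4.22 CPM. Cd3e, Cd4, Cd8a, Lyz2, S100a8, and S100a9 had no UMI. The erythroid sum was 4.59, 4.30, 219, and 285 CPM and came almost wholly from Hbb-bt, a beta globin gene, while the alpha globin genes Hba-a1 and Hba-a2 had no UMI in any library (at most 0.0823 CPM by the upper 95% bound). The part of these library differences in the results below was not tested.

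Promoter sequence was compared between members and G2/M genes because their levels went different ways. RefSeq promoters (GRCm38.p6, 250 bases before to 50 after the start) were given for 38 of the 45 members. The E2F-type letters TTTCCCGC, TTTCGCGC, TTTGGCGC, or TTTGCCGC, on either strand, stood in 16 of these 38 (42.1%), against 2.26% of all 32851 promoters and 2.61% of all genes. The shares were 10 of 33 (30.3%) for other replication genes and 6 of 16 (37.5%) for G1/S control genes, a list whose levels went both ways. The letters TTTGAA, also on either strand, are those of the CHR, an element known from G2/M promoters. They were in 4 of 38 members (10.5%), namely Mcm2, Cdc45, Gins3, and Fen1, and in 14 of 19 G2/M genes (73.7%). The share was 17.9% of all promoters and 20.2% of all genes. Of the G2/M genes, 1 of 19 (5.26%), Cdk1, had E2F-type letters. Among members, E2F-type letters were not confined to those with higher levels in libraries 7 and 8. They also stood in Pold1, after the start, where the ratio was lowest, and in Gins3, whose libraries overlapped. Mcm2, Fen1, and Chaf1a, each at least 2-fold higher, had none. The only promoter given for Timeless, also at least 2-fold higher, had none either. That promoter (chr10:128237816-128238115) lies inside the annotated gene, which starts at 128232065, so the annotated start was not searched. Shown are 3 members with E2F-type letters upstream of the start, each at least 2-fold higher in libraries 7 and 8. Mki67 and Kif11 are shown with CHR letters. All run 5′ to 3′ in the direction of transcription, and capitals mark the matched letters. In Mcm6 the first run of capitals holds 2 overlapping matches on opposite strands. A match describes letters only and was not tested as a binding site.
Mcm6 (chr1:128359706-128359825, minus strand): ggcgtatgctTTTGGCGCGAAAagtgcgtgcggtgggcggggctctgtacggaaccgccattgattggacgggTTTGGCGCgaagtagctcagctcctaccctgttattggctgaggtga
Dtl (chr1:191575545-191575635, minus strand): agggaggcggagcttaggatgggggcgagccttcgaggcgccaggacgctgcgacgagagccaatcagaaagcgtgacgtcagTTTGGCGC
Cdca7 (chr2:72476039-72476158, plus strand): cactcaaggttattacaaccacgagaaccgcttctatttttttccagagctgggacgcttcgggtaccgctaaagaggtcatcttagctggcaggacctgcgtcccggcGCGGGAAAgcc
Mki67 (chr7:135716380-135716499, minus strand): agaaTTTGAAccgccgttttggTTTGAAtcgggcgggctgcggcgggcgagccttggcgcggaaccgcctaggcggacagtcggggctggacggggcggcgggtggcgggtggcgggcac
Kif11 (chr19:37376262-37376381, plus strand): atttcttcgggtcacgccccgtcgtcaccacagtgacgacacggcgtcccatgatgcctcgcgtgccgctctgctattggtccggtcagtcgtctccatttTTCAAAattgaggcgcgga

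Summed over its 45 genes, the module was at 1214, 1255, 1960, and 1869 CPM in libraries 5, 6, 7, and 8. Pooled, this was 1236 CPM in libraries 5 and 6 and 1922 CPM in 7 and 8, a log2 ratio of 0.64 (95% interval 0.63 to 0.65). Both later libraries lay above both earlier ones, and the gap was wider than the spread within either pair. In these droplet data a higher sum can come from more cells that carry the module or from more transcripts per cell, and both are given below. Of the 45 genes, 13 were at least 2-fold higher in libraries 7 and 8 than in 5 and 6, where 14.9% of the 11174 genes with at least 100 UMIs were. Only Pold1 was at least 2-fold lower, where 15.7% of all genes were. For 35 members both libraries 7 and 8 lay above both 5 and 6, as for 50% of all genes, and for 6 members both lay below, as for 40.1% of all genes. The median log2 ratio was 0.72 over the members, which ranged from -1.26 to 2.17, and 0.12 over all genes. The ratio was positive for 38 members and negative for 7. Rfc4, Ccne2, and Pole, at 0.02, 0.11, and 0.16, would turn negative with library totals that leave out mitochondrial, ribosomal protein, and immunoglobulin genes. With those narrower totals 8 members in place of 13 were at least 2-fold higher, since Mcm6, Fen1, Uhrf1, Hells, and Chaf1a no longer were.

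**Figure D1:**
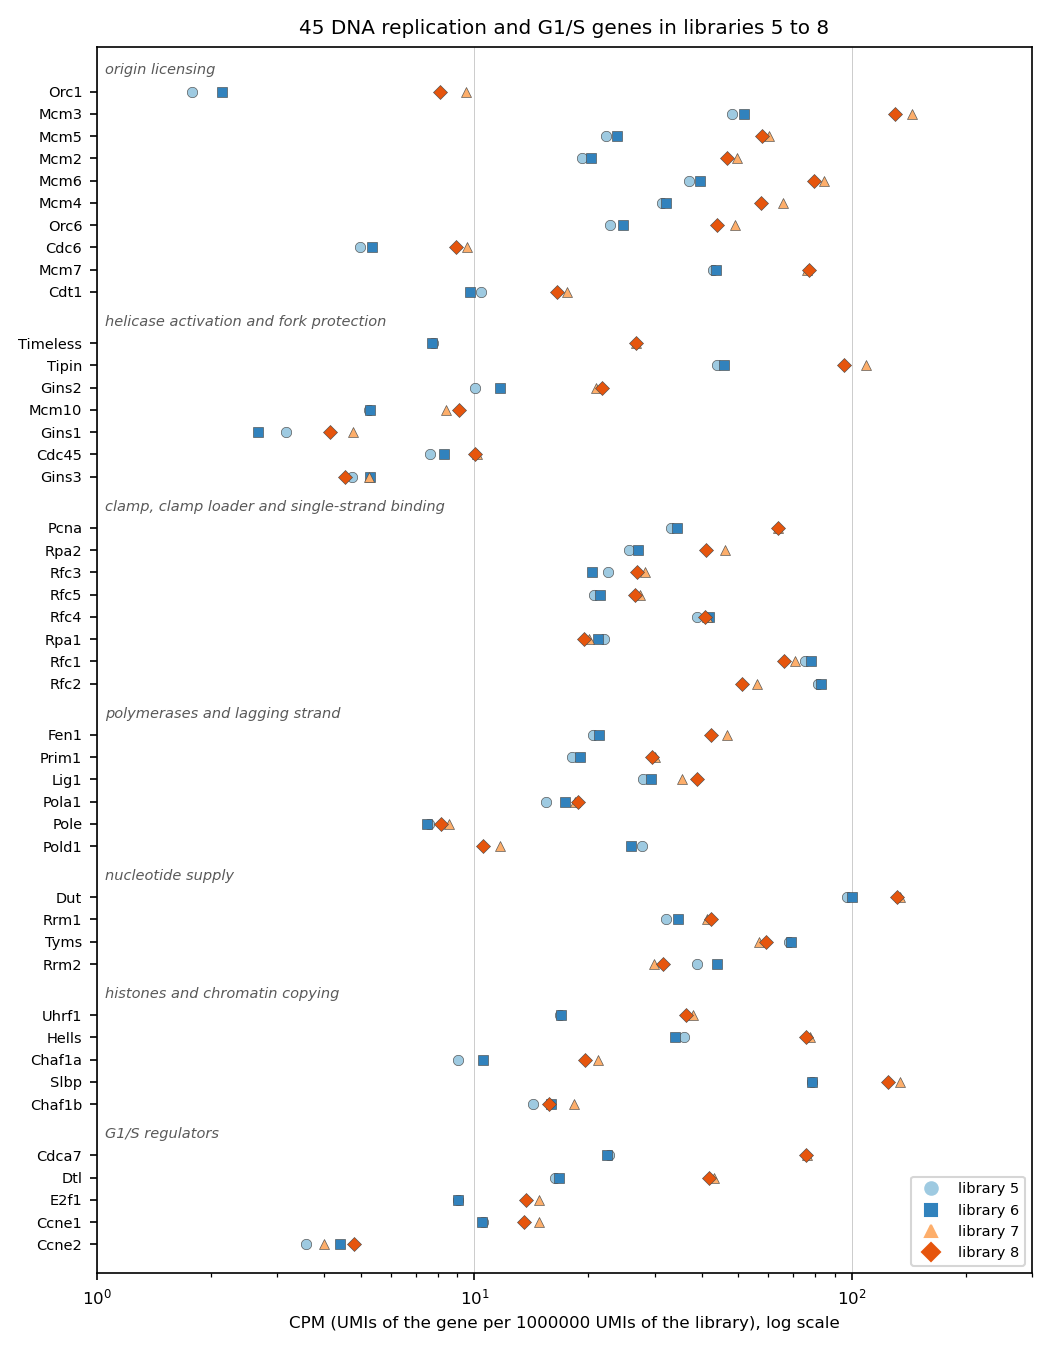
CPM of each of the 45 genes (log scale) in libraries 5 to 8, grouped by role. Each point is 1 library, with blue for 5 and 6 and orange for 7 and 8. The orange points lie to the right for all 10 origin licensing genes and to the left for Pold1, Rfc2, Rrm2, Tyms, Rfc1, and Rpa1.

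The 10 genes of origin licensing were all higher in both libraries 7 and 8, with a median log2 ratio of 1.03 and 5 of them at least 2-fold higher. For comparison with this and the roles below, both later libraries were above for 50% of all genes and below for 40.1%. Of all genes, 14.9% were at least 2-fold higher and 15.7% at least 2-fold lower. Orc1, which encodes an ATPase subunit of the origin recognition complex, lies at chr4:108579423-108614833 (GRCm38). It was found at 1.78, 2.15, 9.52, and 8.12 CPM, the largest ratio of the module (log2 2.17, 95% interval 1.95 to 2.41). Its level was low throughout, and a UMI was seen in 0.471% and 0.761% of cells in libraries 5 and 6 and in 3.88% and 3.38% in 7 and 8, each cell thinned to 5000 UMIs. Mcm3, a subunit of the helicase ring (chr1:20802968-20820312), was at 48.1, 51.8, 144, and 130 CPM (log2 1.46, 1.42 to 1.51). Both later libraries were thus above the earlier pair by more than the members of either pair differed. Mcm5 was at 22.3, 23.9, 60.4, and 57.8 CPM (log2 1.36). Mcm2 was at 19.2, 20.3, 49.6, and 46.8 CPM (log2 1.29), and Mcm6 at 37.0, 39.6, 84.5, and 79.1 CPM (log2 1.10). Mcm4 (log2 0.97) and Mcm7 (log2 0.82) were also higher in both, so the 6 ring subunits were all higher, by unequal amounts. Together, Mcm2 to Mcm7 made up 16.5%, 16.8%, 24.5%, and 24.0% of the module's UMIs. The helicase loaders Cdc6 and Cdt1 had log2 ratios of 0.84 and 0.77, and Orc6, another subunit of the origin recognition complex, 0.97.

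Among the 7 genes that activate the helicase or protect the fork, 2 were at least 2-fold higher and the median log2 ratio was 0.72. Timeless and Tipin encode partners in the fork protection complex. Timeless was at 7.78, 7.73, 26.9, and 26.7 CPM (log2 1.79, 1.67 to 1.91), and Tipin at 43.9, 45.9, 109, and 95.5 CPM (log2 1.20, 1.15 to 1.25). Neither overlapped between the pairs of libraries. The GINS subunits differed among themselves, with Gins2 at 10.0, 11.7, 21.0, and 21.8 CPM (log2 0.97) and Gins1 at 3.17, 2.67, 4.76, and 4.14 CPM (log2 0.63). Gins3 was at 4.75, 5.29, 5.25, and 4.53 CPM, so that its libraries overlapped (log2 -0.03, -0.21 to 0.15). Mcm10, which is needed to start unwinding, and Cdc45, the helicase cofactor, had log2 ratios of 0.72 and 0.34.

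The sliding clamp, its loader, and the single-strand binding proteins gave no common direction. None of these 8 genes was 2-fold apart, and their median log2 ratio was 0.19. In both later libraries 4 lay above and 3 below, which is near the shares of all genes (50% and 40.1%). Pcna, the clamp, was at 33.2, 34.4, 63.8, and 63.8 CPM (log2 0.91), and a near copy listed as Pcna-ps2 could share its reads. Rpa2, a subunit of the single-strand binding complex, was at 25.6, 27.2, 46.2, and 41.1 CPM (log2 0.74), whereas its partner Rpa1 was at -0.12 on the same log2 scale. The 5 loader genes split. Rfc1, the large subunit, was at 75.3, 77.7, 70.6, and 66.3 CPM (log2 -0.15), and Rfc2 at 81.4, 82.8, 56.1, and 51.2 CPM (log2 -0.60). Rfc3 and Rfc5 had log2 ratios of 0.37 and 0.36, and Rfc4, at 0.02, overlapped between the libraries.

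Pold1, the catalytic subunit of polymerase delta (chr7:44532746-44548849), had the lowest ratio of the module. It was at 27.7, 26.0, 11.7, and 10.5 CPM, so that both later libraries lay below both earlier ones (log2 -1.26, -1.36 to -1.16). Fen1, the flap nuclease that trims Okazaki fragments, was at 20.7, 21.3, 46.5, and 42.4 CPM (log2 1.09). The other 4 genes of this role, the primase Prim1, the ligase Lig1, and the polymerase subunits Pola1 and Pole, had log2 ratios of 0.68, 0.36, 0.18, and 0.16. Over the 6 genes the median was 0.27. The 4 genes of nucleotide supply divided evenly. Dut, which clears dUTP, was at 97.0, 100.1, 134, and 132 CPM (log2 0.43), and Rrm1, the large subunit of ribonucleotide reductase, at 32.2, 34.6, 41.3, and 42.3 CPM (log2 0.32). Its small subunit Rrm2 was at 39.0, 44.0, 29.9, and 31.6 CPM (log2 -0.44), and Tyms, the enzyme that makes thymidylate, at 67.9, 69.0, 56.6, and 59.1 CPM (log2 -0.25). Both subunits of ribonucleotide reductase therefore kept their libraries apart, but in opposite directions.

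The 5 genes of histone supply and chromatin copying had a median log2 ratio of 1.06, with 3 at least 2-fold higher, none of which stayed so with the narrower library totals. Uhrf1, which brings the maintenance DNA methyltransferase to new DNA, was at 16.9, 16.9, 38.0, and 36.3 CPM (log2 1.14). Hells, a chromatin remodeler, was at 36.0, 34.0, 77.5, and 75.8 CPM (log2 1.14). Chaf1a and Chaf1b encode subunits of the same histone chaperone. Chaf1a was at 9.05, 10.5, 21.3, and 19.6 CPM (log2 1.06), whereas Chaf1b was at 14.3, 16.0, 18.3, and 15.8 CPM, with libraries 6 and 8 in the reverse order (log2 0.18). Slbp, which binds histone mRNA, had a log2 ratio of 0.73.

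Of the 5 regulators, Cdca7 and Dtl were at least 2-fold higher. Cdca7, which encodes the partner that recruits Hells to chromatin (chr2:72476159-72486893), was at 22.7, 22.4, 75.9, and 75.5 CPM (log2 1.75, 1.68 to 1.82). It was seen in 6.98%, 7.30%, 27.7%, and 27.3% of cells thinned to 5000 UMIs, against 12.6%, 13.2%, 34.5%, and 33.2% for Mcm3. Dtl, which directs CDT1 to degradation, was at 16.4, 16.7, 43.0, and 41.8 CPM (log2 1.36). E2f1 was at 9.05, 9.06, 14.8, and 13.7 CPM (log2 0.66). The cyclin E genes, which drive the entry into S phase, were closer together between the pairs, with a log2 ratio of 0.44 for Ccne1 and of 0.11 (-0.09 to 0.30) for Ccne2, whose libraries overlapped.

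Other cell cycle genes were read from 3 lists, set beside the module in the plot of list ratios. Of all genes with at least 100 UMIs, 14.9% were at least 2-fold higher and 15.7% at least 2-fold lower. Both later libraries lay below both earlier ones for 40.1%. Of 42 other replication genes, 8 were at least 2-fold higher and 2 lower, with a median log2 ratio of 0.54. The highest were Dctd (2.19), Orc2 (1.29), and Cdc7 (1.24), the kinase that fires licensed origins. The lowest were Samhd1 (-2.64), a dNTP hydrolase that was at 141, 147, 23.2, and 23.1 CPM, Dck (-1.29), and Rpa3 (-0.90). Summed, this list was at 1622, 1678, 1775, and 1741 CPM, of which Pold4 alone held 582, 604, 315, and 343 CPM. The 21 genes of G1/S control showed no common direction, with 5 at least 2-fold higher, 5 lower, and a median of 0.08. Cyclin D2 (Ccnd2) was at 156, 142, 675, and 730.4 CPM (log2 2.23), Myc at 2.02, and the phosphatase gene Cdc25a at 1.41 on the log2 scale. At the other end were Cdkn2c (-3.14), E2f2 (-3.14), and Cdkn2d (-1.62), of which Cdkn2c and Cdkn2d encode inhibitors of the cyclin D kinases. G2/M genes lay the other way. Of 22, none was at least 2-fold higher and 6 were lower, and 20 lay below in both later libraries (median log2 ratio -0.71). Mki67 (chr7:135689784-135716361) was at 58.5, 70.0, 29.1, and 31.4 CPM (log2 -1.10, -1.17 to -1.04). Ccnb2 (-2.06), Nusap1 (-2.04), and Kif11 (-1.53) had the lowest ratios, and Cdk1 (0.13), Ccnb1 (-0.20), and Cdca8 (-0.20) the highest. Cdk1 would be below 0 with the narrower library totals named above.

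**Figure D2:**
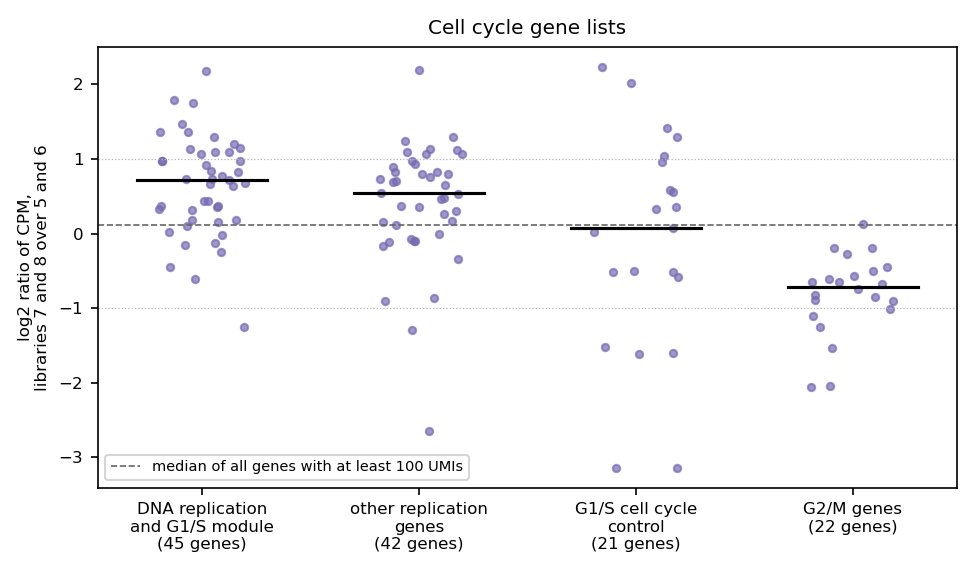
Log2 ratio of CPM, libraries 7 and 8 over 5 and 6, for each gene of 4 lists (45, 42, 21, and 22 genes). Points are genes, solid bars the list medians (0.72, 0.54, 0.08, and -0.71), the dashed line the median of all genes with at least 100 UMIs (0.12), and dotted lines a 2-fold difference.

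To compare cells at like depth, each was thinned to 5000 UMIs, which left out 158, 114, 233, and 157 shallower cells of libraries 5, 6, 7, and 8. The median cell then held UMIs of 3, 3, 5, and 4 of the 45 genes. The 90th percentile was 7, 7, 16, and 15 genes, whereas the 99th percentile was 23, 24, 24, and 23. Of these 3 points of the distribution, the libraries thus differed most at the 90th percentile and little at the 99th. A cell was said to carry the module with UMIs of at least 10 of the 45 genes, which marks a range on a continuous score and not a cell type. Just below that limit, 8 or 9 genes were seen in 61, 73, 359, and 251 cells, and just above it, 10 or 11 genes in 47, 62, 284, and 220 cells. By this rule the module was carried by 305 of 4038 cells in library 5 (7.55%), 360 of 4600 in library 6 (7.83%), 1296 of 5388 in library 7 (24.1%), and 888 of 3846 in library 8 (23.1%).

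**Figure D3:**
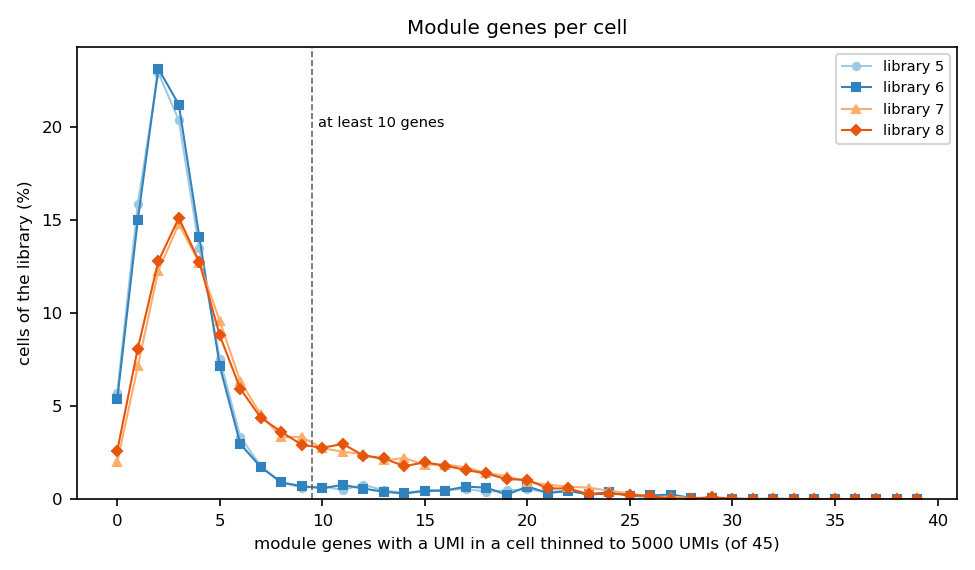
Share of cells (%) by the number of module genes with a UMI, each cell thinned to 5000 UMIs, 1 line per library. Libraries 5 and 6 (blue) drop to low values beyond about 8 genes, while libraries 7 and 8 (orange) keep a long shoulder across the limit of 10 genes (dashed), where 24.1% and 23.1% of their cells lie.

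Among cells that carried the module, the higher share in libraries 7 and 8 came from those without Mki67. They numbered 147 in library 5 (3.64%, 95% interval 3.08% to 4.27%) and 152 in library 6 (3.30%, 2.81% to 3.86%). There were 1118 in library 7 (20.7%, 19.7% to 21.9%) and 747 in library 8 (19.4%, 18.2% to 20.7%). Pooled, 299 of 8638 cells in libraries 5 and 6 (3.46%) and 1865 of 9234 in 7 and 8 (20.2%) belonged here, a ratio of shares of 5.83 (5.18 to 6.57). Cells with both the module and Mki67 were 158, 208, 178, and 141 in number, or 3.91%, 4.52%, 3.30%, and 3.67%, with a ratio of 0.82 (0.70 to 0.94). A Mki67 UMI in a cell without the module was found in 3.09% to 3.72% of libraries 5 and 6 and in 1.73% to 1.82% of 7 and 8.

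**Figure D4:**
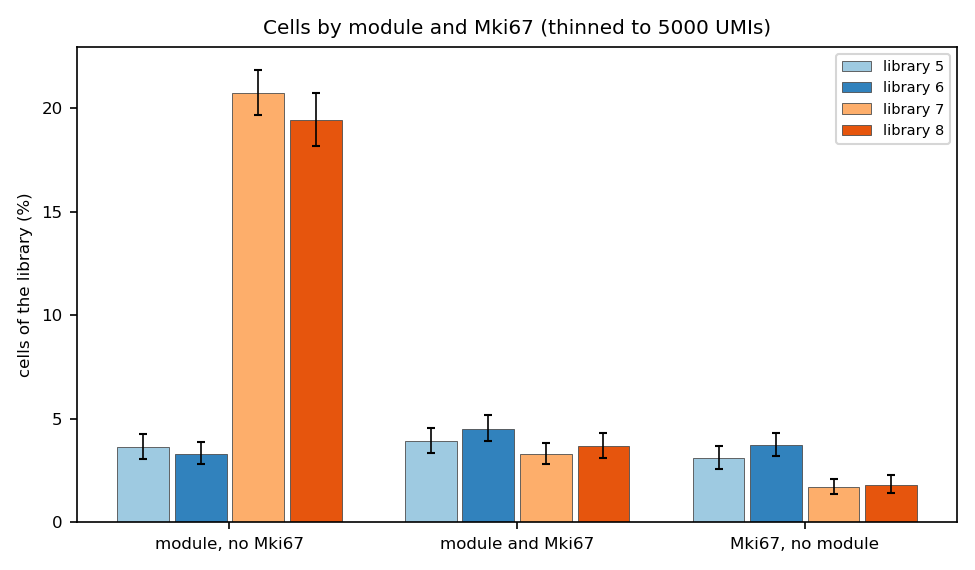
Share of cells (%) in 3 classes, each cell thinned to 5000 UMIs: module without Mki67, module with Mki67, and Mki67 without the module. Bars are libraries 5 to 8 and error bars exact 95% binomial intervals. The first class stands at 3.64% and 3.30% in libraries 5 and 6 and at 20.7% and 19.4% in 7 and 8, and the second at 3.30% to 4.52% in all 4.

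Read the other way, 48.2%, 42.2%, 86.3%, and 84.1% of the cells with the module had no Mki67 UMI. Among cells without the module, at the same depth, 3.35%, 4.03%, 2.27%, and 2.37% had one. A missing UMI does not show that a cell lacks Mki67. Over all of their UMIs, the cells classed as without it still held 65.1 CPM of Mki67 in libraries 5 and 6 and 14.1 CPM in 7 and 8. Those classed as with it held 493 and 319 CPM. The share with none of the 22 G2/M genes was smaller but more unequal, with 40, 30, 466, and 305 cells and a ratio of 10.3 (8.08 to 13.1). Of the cells with Mki67, 55.8%, 54.9%, 65.7%, and 66.8% carried the module.

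The ratio depended on how many module genes were required. Among cells with 10 to 14 module genes and no Mki67, the shares were 1.31% in libraries 5 and 6 and 10.8% in 7 and 8, a ratio of 8.25 (6.81 to 10.0). With 15 to 19 genes the ratio was 5.60 (4.57 to 6.88), and with 20 or more it was 2.76 (2.15 to 3.55). Cells with 20 or more genes, whatever their Mki67, made up 2.45%, 2.80%, 4.05%, and 3.30% of the libraries, a ratio of 1.42 (1.20 to 1.67). The pairs of libraries therefore differed least in the cells richest in module transcripts. Before thinning, cells with the module and no Mki67 had a median of 15021, 15280, 12465, and 12374 UMIs, those with both 17177, 18116, 15833, and 15515, and those without the module 8624, 8603, 9926, and 9665. Cells with the module were the deepest in every library, and the gap was narrower in 7 and 8.

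The cells with and without Mki67 did not hold the module genes in the same proportions. For this comparison each member was left out of the count that classed the cells, and levels are CPM over all UMIs of the class. Of the 45 members, 8 were higher in cells without Mki67 in all 4 libraries, where 13.2% of 9393 genes were, and 24 were lower in all 4, where 21.5% of genes were. The count of 8 is near the share of all genes and does not set the members apart. The 8 were Orc1, Mcm2, Mcm3, Mcm4, Mcm6, Gins1, Hells, and Cdca7. Cdca7 was at 126, 124, 138, and 140 CPM without Mki67 and at 85.0, 78.3, 103, and 95.2 CPM with it. Mcm2 was at 93.4, 99.4, 114, and 109 CPM against 73.4, 69.9, 76.8, and 78.4 CPM. Both differences were the same way in each library but under 2-fold. Orc1 was at 13.7, 15.1, 24.9, and 21.7 CPM against 9.28, 9.69, 12.4, and 16.3 CPM. For Gins1 the interval of the ratio in libraries 7 and 8 included 0 (log2 0.09, -0.34 to 0.55). Taken singly, all 4 libraries had an interval that included 0 for Gins1. So did libraries 5, 6, and 8 for Orc1, library 7 for Mcm3, library 8 for Mcm6, and library 5 for Hells.

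Rrm2, of nucleotide supply, had the largest difference in both pairs of libraries, and it lay the other way. It was at 118, 182, 55.1, and 61.4 CPM in cells without Mki67 and at 381, 351, 297, and 296 CPM in cells with it, or log2 -1.27 (-1.39 to -1.15) in libraries 5 and 6 and -2.36 (-2.47 to -2.26) in 7 and 8. Tyms, of the same role, was at 196 against 355 CPM in libraries 5 and 6 and at 79.8 against 185 CPM in 7 and 8. Rrm1 was at 112 against 159 and at 73.4 against 168 CPM, and Dut at 422 against 508 and at 259 against 422 CPM. Each gene was lower without Mki67 in all 4 libraries, by more in 7 and 8 than in 5 and 6. Cyclin E2 (Ccne2) behaved alike, with log2 -0.48 (-0.81 to -0.15) and -1.87 (-2.16 to -1.57), as did Mcm10 (-0.35 and -1.18), Cdc45 (-0.52 and -1.14), and Pcna (-0.40 and -0.83). Some members had the smaller difference in 7 and 8, among them Pola1 (-0.91 and -0.72) and Gins3 (-0.92 and -0.82). The classes were also less alike in libraries 7 and 8. Their median cell held 14 module genes without Mki67 and 17 with it, against 16 and 17 in 5 and 6. The part of this in the wider gap was not tested. No member was 2-fold lower in all 4 libraries. The 21 G2/M genes other than Mki67 were each at least 2-fold lower in all 4, as were 1.51% of all genes, with medians of -1.95 and -3.08.

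**Figure D5:**
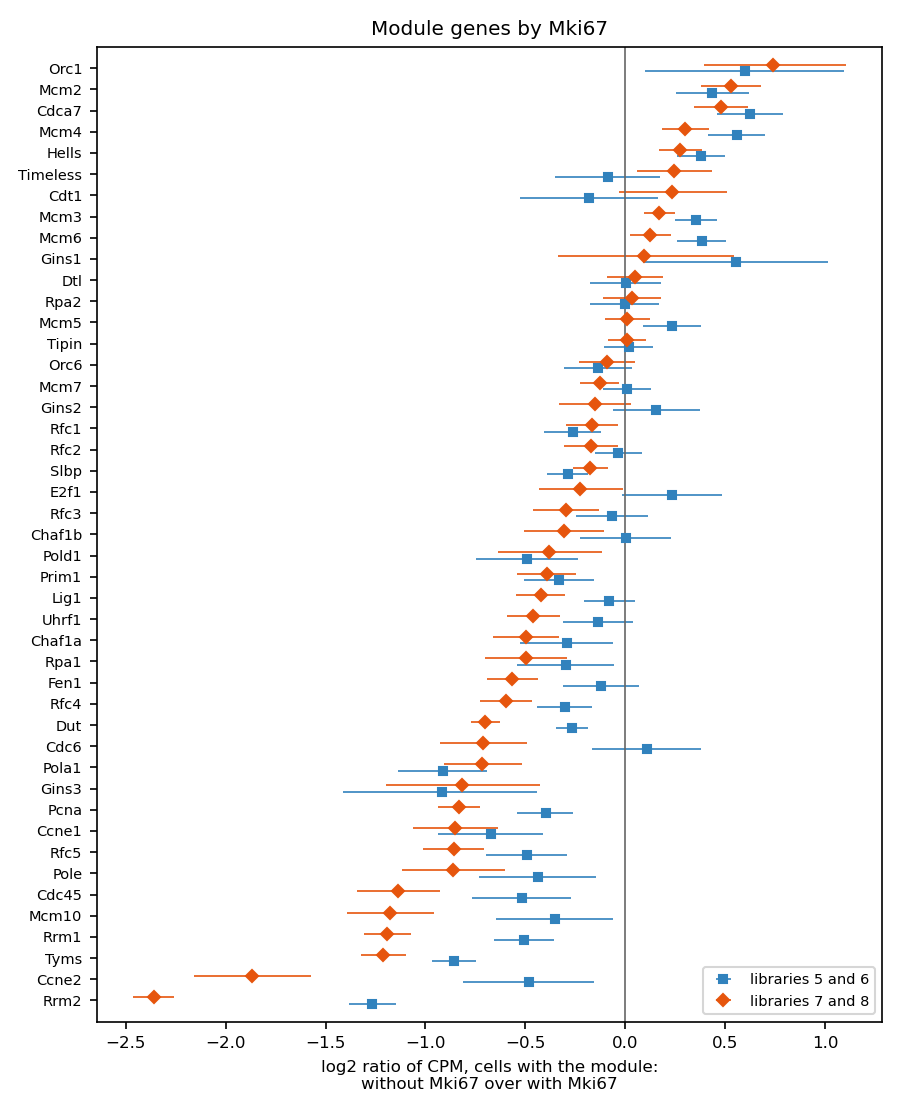
Log2 ratio of CPM for the 45 genes, cells with the module and no Mki67 over cells with the module and Mki67, in libraries 5 and 6 (blue squares) and 7 and 8 (orange diamonds). Bars are exact 95% counting intervals. Orc1, Mcm2, and Cdca7 lie to the right, and in libraries 7 and 8 Rrm2, Ccne2, Tyms, and Rrm1 farthest to the left, beyond their blue points.

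Within cells that had no Mki67, those with the module were next set against those without it, again with each member left out of its own count. This contrast follows in part from the rule, since members were also used to class the cells by one another, and its member counts are a description. All 45 were higher in the cells with the module in all 4 libraries, and 42 were at least 2-fold higher, the exceptions being Rfc1, Pold1, and Tyms. None was lower in all 4. Of 11011 genes, 22.1% were higher in all 4, 2.34% at least 2-fold, and 18.1% were lower in all 4. The cells without the module also differed between libraries. Mcm3 was at 19.9, 20.5, 63.9, and 64.8 CPM in them and at 296, 277, 362, and 330 CPM in those with the module. Cdca7 was at 11.0, 11.2, 55.5, and 55.7 CPM in the former. Both genes were thus higher in libraries 7 and 8 on either side of the limit, with the wider gap among cells under it. Members differed in this among cells with the module. Pooled by pair, Timeless was also higher in 7 and 8, at 40.2 and 62.6 CPM. Dut, at 422 and 259, Rfc2, at 205 and 96.4, and Hells, at 218 and 202 CPM, were lower there. Cells with 6 to 9 module genes, whatever their Mki67, made up 6.43% of libraries 5 and 6 and 17.2% of 7 and 8. The part of this in the gap under the limit was not tested. For Rrm2 the cells without the module held 4.20, 3.11, 2.97, and 2.85 CPM, with no such gap. Pold1 was at 24.3, 22.0, 6.30, and 5.47 CPM in cells without the module and at 39.6, 37.7, 23.3, and 22.4 CPM in those with it, and was lower in libraries 7 and 8 in both classes.

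Genes outside the module were read in the same cells. Of the 42 other replication genes, 38 were higher in all 4 libraries in the cells with the module and 24 at least 2-fold. Of the 21 G1/S control genes, 12 were higher and 6 at least 2-fold, with median log2 ratios of 1.02 in libraries 5 and 6 and 0.33 in 7 and 8. Lower in all 4 were 1 of the other replication genes and 3 of the G1/S control genes. Of all genes, 22.1% were higher in all 4, 2.34% at least 2-fold, and 18.1% lower in all 4. E2f2, an activating E2F, was at 32.2, 38.7, 8.33, and 10.6 CPM with the module and at 47.8, 50.1, 2.63, and 3.59 CPM without it, so its direction was opposite in the pairs of libraries. The 21 G2/M genes were not absent from the cells without Mki67, since 19 were higher in all 4 libraries than in cells without the module. Outside all lists, the gene with the largest lowest ratio over the 4 libraries was Pclaf, which encodes a PCNA-binding factor. It was at 677, 723, 213, and 238 CPM in all cells with the module and at 17.9, 15.2, 7.74, and 7.50 CPM in all others. Stmn1, Ung, Hist1h1b, Cenpm, Wdr76, Smc2, Syce2, Nsd2, and Selenoh followed, with lowest log2 ratios from 3.34 for Stmn1 to 1.43 for Selenoh. Hist1h1b, a linker histone gene, was also read in all cells with the module. It was at 786 and 906 CPM in libraries 5 and 6 and at 150.1 and 187 CPM in 7 and 8. Ung, which removes uracil from DNA, was at 53.8, 50.7, 107, and 106 CPM in the same cells, the reverse order. These values pool cells with and without Mki67, and those with Mki67 were a larger share in libraries 5 and 6, as given above. The part of this in the library differences of Pclaf, Hist1h1b, and Ung was not tested.

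Il10 did not follow the module in libraries 7 and 8. Among cells without Mki67 it was at 250.3 CPM with the module and at 260.1 CPM without it, whereas in libraries 5 and 6 it was at 23.7 (19.7 to 28.3) and 11.8 (11.0 to 12.5) CPM. The globin Hbb-bt, whose library difference is given above, was at 205 and 258 CPM in the same classes of libraries 7 and 8, and at 12.2 and 3.45 CPM in libraries 5 and 6. In libraries 5 and 6 the B cell marker Cd79a was at 2118 CPM with the module and 3316 CPM without it. In libraries 7 and 8 these values were 1072 and 1037 CPM.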

How the data were processed

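The deposited values are whole UMI counts per gene and cell, which the authors made from Chromium Single Cell 3' v3 libraries with bcl2fastq and Cell Ranger (version 3.1.0, mm10 with an Ensembl reference), whose aggr step combined the libraries and evened out their depth. The matrix holds 35989 columns for 19920 barcodes. The last 19920 columns were taken as the barcodes in order, and the first 16069 columns were left out. Of 19920 cells, 18534 passed the limits of 1000 genes and 10% mitochondrial UMIs. The number of mice per library is not given in the labels.

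UMIs were summed per library and divided by its total (CPM). With no map from cells to samples, no test was run, and no p-value is given. Cells were thinned to 5000 UMIs (seed 1) for counts of cells. Intervals for CPM are exact (Poisson), as are those for log2 ratios (conditional) and for shares (Clopper-Pearson), and those for ratios of shares are on the log scale (SciPy version 1.17.1, NumPy version 2.4.6, pandas version 2.3.3, Python version 3.11.15, matplotlib version 3.10.9). The calculations were tested on simulated data in which cells with and without the module were well separated. Because the score in these libraries is continuous, that does not show how the limit of 10 genes behaves here. Genes with at least 100 UMIs over the 4 libraries formed the background, and a call needed a 2-fold difference. TMM factors came from edgeR (version 4.0.16, R version 4.3.3). No doublet caller was run, and the 5% of cells with most UMIs were left out as an alternative. All members were named, with the 3 highest and 3 lowest genes of each list and the 10 genes outside the lists, at 50 CPM or more in cells with the module of each library, whose lowest ratio was largest. Further genes (Samhd1, Pold4, and Ccnd2 levels, Hist1h1b and Ung levels, Cd79a) were set out after their values were seen. The members, lists, and pairs of libraries were chosen with earlier results of these data known. Gene positions are from GENCODE vM21 (GRCm38), and promoters from RefSeq.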

Additional observations from a re-analysis of the deposited data

How the results depend on the processing

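No paired analysis was possible because no label ties the libraries to samples or replicate numbers, and no result came from a test. The module's summed ratio and the ratio of shares of cells each kept their direction under all alternatives run for them. Narrower library totals and TMM scaling were not run for the ratio of shares. Of the 45 members, 38 had a positive and 7 a negative ratio, against 35 and 10 with the narrower totals named next, 37 and 8 with TMM scaling, and 36 and 9 without library 5. The module's log2 ratio of 0.64 was 0.66 with no cell filter, 0.47 with totals without mitochondrial, ribosomal protein, and immunoglobulin genes, 0.56 with TMM scaling, 0.72 without the 5% of cells with most UMIs, 0.50 without Mcm2 to Mcm7, and 0.60 to 0.67 with each library left out in turn. The count of 13 members at least 2-fold higher was 8 with the narrower totals and 12 to 17 otherwise, and the count of 1 lower stayed at 1. The narrower totals and TMM scaling moved the median log2 ratio of all genes from 0.12 to -0.05 and 0.03, and changed the number of genes at least 2-fold higher and lower from 1670 and 1751 to 1283 and 2083, and to 1463 and 1907. The ratio of shares of cells with the module and no Mki67, 5.83, was 4.15 with at least 6 genes, 4.37 with at least 15, 2.76 with at least 20 (chosen after seeing the data), 4.06 with 3000 UMIs, 4.32 with no thinning (8.04% against 34.7%), 7.87 with no Mki67 among all UMIs, 10.3 with no G2/M gene, 4.86 without Mcm2 to Mcm7, 6.82 without the 5% of cells with most UMIs, and 5.55 to 6.11 with each library left out in turn. Another seed gave 6.13 and no cell filter 6.12. The cause of these shifts was not tested. Members at about 5 CPM or less (Orc1, Cdc6, Mcm10, Gins1, Gins3, and Ccne2 in libraries 5 and 6) rest on few UMIs per cell.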
